A study of Drosophila melanogaster with 3 samples.

Results

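A total of 2026 regions called in anti-GFP ChIP-seq of Smox-GFP fell below the authors' reproducibility threshold and were nevertheless found in each of the 3 replicates alone. They were chosen by rank and overlap: each is a line of the pooled list on 2L, 2R, 3L, 3R, 4 or X, ranks 15000 or better by the score of the authors' peak caller, overlaps none of the 6622 thresholded peaks, and overlaps by at least 1 bp a region among the first 15000 of replicate 1, of replicate 2 and of replicate 3. The pooled list held 30000 lines, of which 7600 on these arms met the rank limit without touching a thresholded peak, so that the reproducible regions made up 26.7% of them and 6.76% of all pooled lines on the arms. The other 5574 are called unreproduced regions here, and the 14558 that ranked past 15000 are called lower regions. Unreproduced means only that not all 3 replicates covered the region: 2887 were covered in 2 replicates, 2205 in 1 and 482 in none. The material was whole white prepupae, mixed in sex, of a transgenic line that stably expresses Smox with GFP at its C terminus, and the series holds 1 group of 3 biological replicates with no other genotype or treatment. Whole animals were used, so the cells in which a region was occupied are not known, and the promoter that drives the fusion is not given in the labels. Read counts were not analysed here, and the depth of each replicate is unknown.

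Smox is the SMAD protein of the Activin branch of TGF-beta signalling in Drosophila. Ligands such as daw bring together a type II receptor, put or wit, and the type I receptor babo, which phosphorylates Smox, and Smox then enters the nucleus with the co-SMAD Med. The parallel BMP branch uses the type I receptors tkv and sax and the SMAD protein Mad. SMAD proteins contact DNA through the short SMAD box GTCT, read as AGAC on the other strand, and usually bind beside other factors. The white prepupa marks puparium formation under a pulse of ecdysone, when larval tissues begin to be dismantled and discs and neurons are remodelled.

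The sequences at 9 pooled summits are shown as examples. Each runs from 50 bp before to 50 bp after the pooled summit, plus strand, build dm6 (the Release 6 sequence), with every SMAD box in capitals. The first 5 belong to the regions whose worst replicate rank was best, on the arms for which sequence is shown. In each of these 5 all 3 replicate summits lay more than 50 bp from the pooled summit. The windows shown therefore do not hold the bases where the replicates placed the summit. The other 4 lie near start sites of the BMP receptor gene tkv, of the kinase gene nmo, of the juvenile hormone effector gene Kr-h1 and of the ribosomal protein gene RpS3, and were chosen after their values had been seen.
Pvr, chr2L:8229944-8230044: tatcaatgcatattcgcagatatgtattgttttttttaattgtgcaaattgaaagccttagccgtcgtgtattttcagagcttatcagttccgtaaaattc
bmm, chr3L:14781694-14781794: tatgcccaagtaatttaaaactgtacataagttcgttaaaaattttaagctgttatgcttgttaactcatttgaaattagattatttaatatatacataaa
CG7884, chrX:19230195-19230295: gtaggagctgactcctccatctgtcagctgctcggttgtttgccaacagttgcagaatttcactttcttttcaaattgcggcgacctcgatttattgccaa
CG43658, chrX:17550617-17550717: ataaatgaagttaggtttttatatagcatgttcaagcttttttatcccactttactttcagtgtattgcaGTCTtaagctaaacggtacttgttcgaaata
cv, chrX:5689834-5689934: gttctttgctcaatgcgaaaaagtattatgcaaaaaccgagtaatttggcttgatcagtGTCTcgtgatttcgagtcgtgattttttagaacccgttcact
tkv, chr2L:5242667-5242767: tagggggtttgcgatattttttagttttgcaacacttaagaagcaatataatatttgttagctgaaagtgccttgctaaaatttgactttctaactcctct
nmo, chr3L:7978855-7978955: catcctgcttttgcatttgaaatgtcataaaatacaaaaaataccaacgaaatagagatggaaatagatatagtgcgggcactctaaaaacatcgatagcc
Kr-h1, chr2L:6081959-6082059: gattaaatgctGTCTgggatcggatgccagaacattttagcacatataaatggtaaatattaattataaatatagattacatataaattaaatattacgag
RpS3, chr3R:23358660-23358760: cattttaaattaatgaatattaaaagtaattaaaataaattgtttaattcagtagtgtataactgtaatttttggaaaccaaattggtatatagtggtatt
Boxes appear in 3 of these 9 windows, at CG43658, cv and Kr-h1, with 1 in each. The G+C content ranged from 18.8% at RpS3 to 46.5% at CG7884, against 42.1% over all bases of the arms. The CG7884 region ends at its pooled summit, so the bases to the right of the centre of that window lie outside the region.

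The ranks that chose the regions are given as a description and support nothing further. Pooled ranks ran from 6623 to 14988 with a median of 8181. The median rank was 9364 in replicate 1, 9441 in replicate 2 and 8940.5 in replicate 3. The spread between replicates was wide, since the 3 ranks of a region differed by a median of 3904 places. The worst rank came from replicate 1 in 683 regions, from replicate 2 in 743 and from replicate 3 in 600. These counts cover only regions that passed the limit in all 3 replicates, so they do not show which replicate excluded most. With 1 replicate left out of the rule, the regions numbered 2790 without replicate 1, 2800 without replicate 2 and 3375 without replicate 3. The strongest region, near Mfe2, had a score of 102.765 in the pooled list, and the weakest thresholded peak, near RpS30, had 102.813. In the replicates the Mfe2 region ranked 11326, 8427 and 5608, and the RpS30 peak 8993, 7152 and 6430. Just inside the replicate limit lay a region near Arl8, at rank 15000 in replicate 3. Just outside lay a region near Jhbp1, with pooled rank 6682 but 1 place past the limit in replicate 1.

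Coverage by the replicates fell steeply with pooled rank. Of the 1221 regions of ranks up to 8000, 912 (74.7%) were found in all 3 replicates and none was missed by all. Among the 900 regions past rank 9000 and up to 10000 the share was 34.1%, and among the 940 past rank 14000 it was 4.15%. The rule itself ties both ranks together, so this decline is no independent result.

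**Figure D1:**
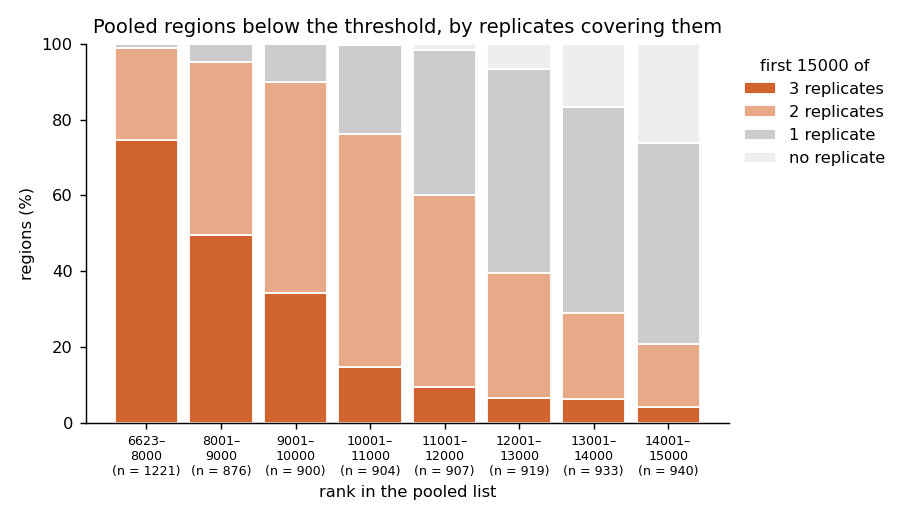
Share of pooled regions below the threshold (vertical axis, percent) that were covered by the first 15000 regions of 3, 2, 1 or no replicate, by rank in the pooled list (horizontal axis, with the number of regions in each bar). The share covered in all 3 falls from 74.7% to 4.15%.

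The summit is the base with the strongest signal in a region, and here the replicates placed it less closely than in thresholded peaks. All 3 replicate summits lay within 100 bp of the pooled summit in 1086 reproducible regions (53.6%), against 5178 (81.3%) of the thresholded peaks that all 3 replicates covered. The median distance from the pooled summit was 29 bp in replicate 1, 33 bp in replicate 2 and 42 bp in replicate 3, against 15, 16 and 24 bp for thresholded peaks. Many regions also came as neighbours. In 199 pairs both regions were covered by the same region in each of the 3 replicates, and their pooled summits lay a median of 208 bp apart (range 199 to 371 bp). These 398 regions are therefore not separate observations, and the regions merged where they overlap numbered 1796.

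A few regions ranked far better in each replicate than in the pooled list. The intronic region 683 bp into Pvr, which encodes a PDGF and VEGF receptor-like tyrosine kinase, ranked 7687 in the pooled list and 1892, 1691 and 1663 in the replicates. Its replicate summits lay 203, 204 and 121 bp to the left of the pooled summit, the same side in each. The region in bmm, which encodes the triglyceride lipase brummer, ranked 9332 in the pooled list and 2102, 3089 and 2044 in the replicates, with summits 221, 237 and 170 bp to the left. At cv, which encodes a secreted BMP-binding protein, the ranks were 7194 in the pooled list and 2387, 3085 and 4117 in the replicates. There the replicate summits lay 195, 203 and 237 bp to the left of the pooled summit, which was 118 bp upstream of the cv start site. In all, 16 regions had each replicate rank within the first 6622, the number of thresholded lines. In none of the 16 did every replicate summit lie within 100 bp of the pooled one, and in 7 the covering regions of all 3 replicates also overlapped a thresholded peak. One of those 7 was the CG7884 region, only 210 bp from a thresholded summit. All 3 replicate summits lay over 100 bp from the pooled summit in 14 of the 16. The exceptions were red, with replicate summits at 367, 20 and 272 bp, and CG5004, with 10, 165 and 319 bp. In both, the replicate summits fell on both sides of the pooled one. No test was given to these ranks.

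Others of the 20 regions with the best worst replicate rank were near genes of varied kinds. The regions at mthl3, SP2353, CG16721 and RtGEF lay in promoters, with summits 348 bp downstream and 175, 12 and 104 bp upstream of the start site. Their worst replicate ranks were 3855, 4083, 4403 and 5307. The regions near CG6168, Act5C, CrebB, CG3842 and Orai, as well as CG43658, were the other 6 of the 7 covered in each replicate by a region that also overlapped a thresholded peak. A region 269 bp into the glycolytic gene Pgk ranked 6705, 6679 and 6787, and the region at SP2353 ranked 3975, 4083 and 4065. Both span 108 places, the smallest range of replicate ranks among all 2026 regions. At Pgk this closeness of rank was not closeness of place. The summits of replicates 1 and 2 lay 330 and 317 bp to the right of the pooled summit. That of replicate 3 lay 231 bp to the left, in a region that also covered a neighbouring reproducible region at Pgk. A region 16 bp upstream of msn, a kinase gene of JNK signalling, ranked 6960, 5558 and 6824, and its replicate summits all lay within 100 bp of the pooled one. The remaining regions of the 20 were near red, CG5004, mura and sqd, with worst replicate ranks of 6023, 6481, 6721 and 6834.

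Where the regions lie was not used by the rule and was compared with the other groups. Reproducible regions were less often at promoters, taken as 500 bp either side of any start site, than thresholded peaks. At pooled summits 453 of 2026 (22.4%, 95% Wilson interval 20.6 to 24.2%) were promoter summits, against 2198 of 6600 thresholded summits (33.3%, 32.2 to 34.4%) and 13.6% of all bases. At the summits of replicates 1, 2 and 3 the shares were 22.6%, 23% and 22.5%, against 33.6%, 33.5% and 33.5% for thresholded peaks. The difference was -10.9 ± 0.314 percentage points (mean and SD, n = 3), negative in 3 of 3 replicates, with an exact sign-flip permutation p of 0.25 (two-sided). With 3 replicates 0.25 is the smallest p this test can give, so it cannot pass 0.05 for any value here. The replicate values refer to the same loci and share them, so the SD covers only where each replicate put the summit, and the intervals cover counting error only. Promoter shares also fell with rank among thresholded peaks alone, from 42.4% of ranks 1 to 1655 to 28.2% of ranks 4967 to 6622. The reproducible regions stood at 22.6% up to rank 8000, 21.1% from there up to rank 10000 and 24.3% (20.3 to 28.9%) past rank 10000, so no further decline was seen within them.

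Against unreproduced regions, the direction of the promoter difference depended on which regions were taken. The unreproduced regions of each replicate list, the first 15000 that touch neither a thresholded peak nor a reproducible region, had promoter shares of 26.9%, 30.4% and 24.9%. The difference was then -4.72 ± 2.48 percentage points (SD, n = 3), negative in 3 of 3 replicates (exact sign-flip permutation p = 0.25). The unreproduced regions of the pooled list had 1140 promoter summits of 5574 (20.5%, 19.4 to 21.5%), and the difference turned to +1.91 points. Rank moved with this result. Up to rank 8000 the reproducible regions had 22.6% promoters and the unreproduced regions of the pooled list 33.0% (28.0 to 38.4%), while past rank 10000 the shares were 24.3% (20.3 to 28.9%) and 17.8% (16.7 to 19.0%).

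Outside promoters, introns held 944 of the reproducible summits (46.6%) and intergenic sequence 570 (28.1%). The intergenic share exceeded that of thresholded peaks, 20.03% at pooled summits, by 8.01 ± 0.207 percentage points (SD, n = 3) and in 3 of 3 replicates (exact sign-flip permutation p = 0.25), and was close to the 27.2% of all bases. Coding exons were nearly empty of summits. Only 6 of 2026 reproducible summits (0.296%, 0.136 to 0.645%) lay in one, against 9 of 6600 thresholded summits (0.136%), 35 of 5574 unreproduced (0.628%), 453 of 14558 lower regions (3.11%) and 13.7% of all bases. The share in reproducible regions was 0.230 ± 0.0670 points above thresholded peaks and 1.11 ± 1.30 points below the unreproduced regions of the replicates (exact sign-flip permutation p = 0.25 for both, n = 3). The second value rests on replicate 3, whose unreproduced regions had 3.03% in coding exons against 0.530% and 0.892% in replicates 1 and 2. When the rule was rerun with replicates 1 and 2 only, which changed both sets of regions, the difference was -0.536 points. The first turned to -0.113 points with a rank limit of 12000.

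**Figure D2:**
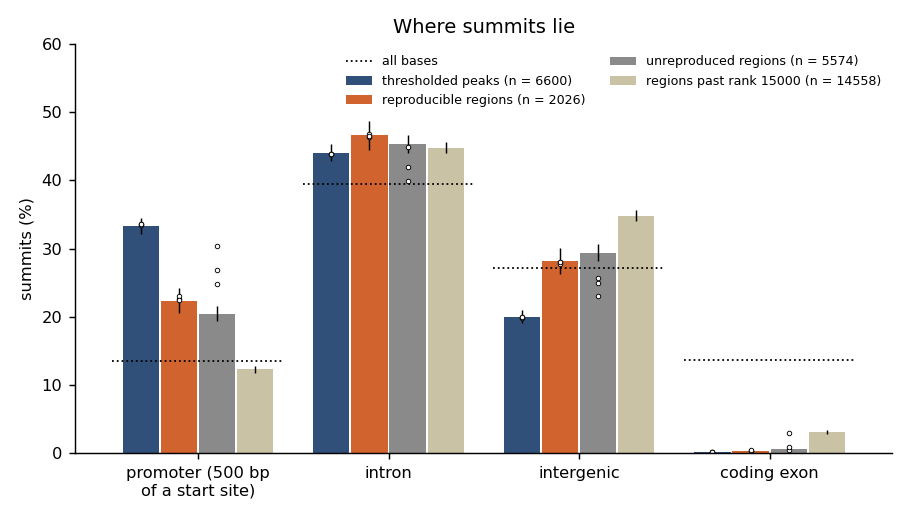
Share of summits (vertical axis, percent) in promoters, introns, intergenic sequence and coding exons. Bars show pooled summits with 95% Wilson intervals for 4 groups, white points the 3 replicates' summits or regions, and dotted lines the share of all bases; the reproducible regions stand at 22.4% in promoters, 28.1% in intergenic sequence and 0.296% in coding exons.

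Most promoter summits belonged to protein-coding genes. Of the 453, 392 lay within 500 bp of a protein-coding start site, and 54 lay near an ncRNA start site without a protein-coding one, 2 of them near a snoRNA start site too. Another 5 were at tRNA genes alone, 1 at a snoRNA gene alone and 1 at both a snRNA and a snoRNA gene. The median distance to a protein-coding start site was 3582 bp, against 1853.5 bp for thresholded peaks, 3806.5 bp for unreproduced regions and 5340.5 bp for lower regions. Annotated transposable elements held 12 reproducible summits (0.592%, 0.339 to 1.03%) against 5.93% of all bases and 0.212% of thresholded summits. Among the 12, 8 were in INE-1 copies and 1 each in 1360, HMS-Beagle, pogo and roo.

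Reproducible regions lay nearer to thresholded peaks than unreproduced regions did. By construction no region touches a thresholded peak, so distances of less than about a region's width are rare in every group. The median distance to a thresholded summit was 3914.5 bp, against 5385.5 bp for unreproduced and 14264 bp for lower regions. Within 2 kb lay 631 (31.1%, 29.2 to 33.2%) of the reproducible summits, against 25.5% (24.4 to 26.7%) of the unreproduced and 14.4% of the lower ones, with 14.5% of all bases that near. At replicate summits the shares were 31.1%, 31.3% and 30.9%, against 26.8%, 25.6% and 21.4% for the unreproduced regions of replicates 1, 2 and 3. The difference was 6.50 ± 2.72 percentage points (SD, n = 3), positive in 3 of 3 replicates (exact sign-flip permutation p = 0.25). With only ranks past 8000 and up to 10000 it was 2.34 ± 3.48 points, less than its spread, and past rank 10000 it was 11.5 ± 2.77 points. These limits used the pooled rank for reproducible regions and each replicate's own rank for unreproduced ones. The sides were therefore not matched in rank. A second reproducible summit within 2 kb was present for 593 regions (29.3%), in 280 runs, of which 250 were pairs, 27 held 3 regions and 3 held 4. The runs of 4 lay in Tet, in stx and beside CG5199.

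Regions far from thresholded peaks were at start sites about as often as near ones. Of the 580 regions over 10 kb from any thresholded summit, 138 (23.8%) were promoter summits, and of the 631 within 2 kb, 147 (23.3%). The median pooled ranks of those sets were 8258 and 8196. Over 50 kb away lay 99 regions. The farthest was 71 bp upstream of Parp1, which encodes poly(ADP-ribose) polymerase, at 627136 bp from the nearest thresholded summit, with ranks of 14684, 8342 and 6946 in replicates 1, 2 and 3. The next lay 91 bp upstream of Spf30, at ranks 11190, 10952 and 14023. A pair of regions at lt, which encodes a subunit of the vesicle tethering complex HOPS, shared the replicate regions of ranks 11237, 6595 and 8669, and lay 588168 and 587965 bp away. Parp1 and lt are known as genes within pericentromeric heterochromatin. Regions 53 bp upstream of CG41099, 36 bp into CG12567 and 52 bp upstream of alpha-Cat, the alpha-catenin gene of adherens junctions, followed at 367585, 338514 and 242632 bp. Among the 8 farthest regions 7 were promoter summits, the exception being an intergenic one near CG41128.

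The base composition at the summits was compared with that of the sequence around them. Windows reaching 75 bp to either side of reproducible summits held 34.9% G+C, and equally wide windows at a distance of 500 bp on both sides held 43.1%. At the summits of replicates 1, 2 and 3 the content was 34.4%, 35.7% and 35.5% against flanks of 43.3%, 42.9% and 43.0%, a difference of -7.88 ± 0.918 percentage points (SD, n = 3), negative in 3 of 3 replicates (exact sign-flip permutation p = 0.25). The dip was shallower than at thresholded peaks, which held 33.3%. Reproducible summits exceeded them by 1.92 ± 0.376 points, in 3 of 3 replicates (exact sign-flip permutation p = 0.25). Against unreproduced regions, at 34.2%, 38.3% and 38.2% in the replicates, the differences were +0.105, -2.60 and -2.67 points, so replicate 1 went the other way and the mean of -1.72 ± 1.58 points (exact sign-flip permutation p = 0.5) was about as large as its spread. Lower regions held 37.5%. The order thresholded, reproducible, unreproduced was kept within introns (32.8%, 34.2% and 34.7%), promoters (34.4%, 37.0% and 38.9%) and intergenic sequence (32.4%, 33.9% and 34.1%). It was not kept in 3′ UTRs (34.7%, 35.7% and 32.4%) or other exons (32.1%, 35.3% and 34.7%), which held 22 and 20 reproducible summits. By rank the steps were not even: thresholded peaks of ranks 4967 to 6622 held 34.7%, reproducible regions up to rank 8000 held 34.2%, and past rank 10000 reproducible regions held 37.5% and unreproduced ones 35.4%.

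**Figure D3:**
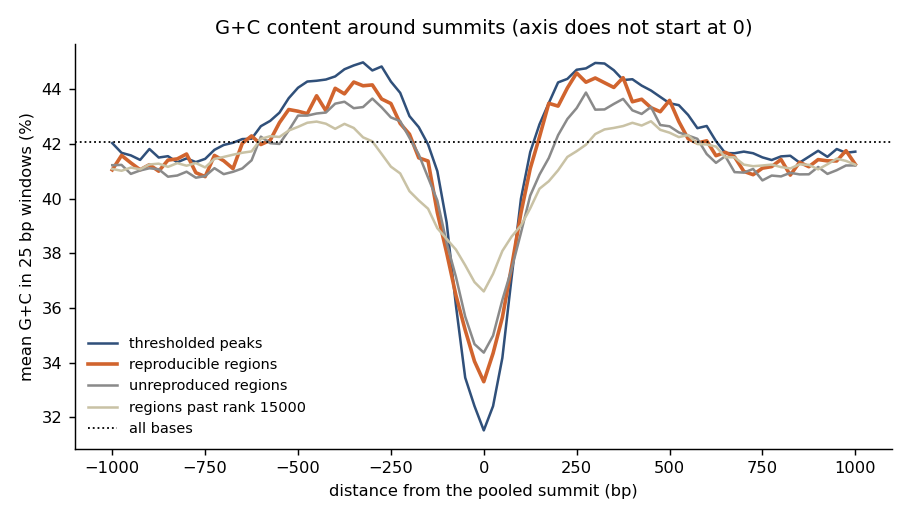
Mean G+C content in 25 bp windows (vertical axis, percent, not starting at 0) by distance from the pooled summit in bp, for thresholded peaks, reproducible, unreproduced and lower regions, with the content of all bases (42.1%) dotted. Every group dips at the summit. From 75 bp before to 50 bp after it the reproducible regions run between the thresholded peaks and the unreproduced regions, and farther out this order is not kept.

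Sequence elements were counted as the share of windows, 75 bp to either side of the centre, that hold the letters on either strand. The SMAD box GTCT was less frequent at the summits than beside them. It was present in 846 of the 2026 pooled windows (41.8%), in 48.2% of their flanking windows and in 50.2% of all windows of that length on the arms. At replicate summits the shares were 41.2%, 43.9% and 43.7%, which is 5.12 ± 1.46 percentage points under the flanks (difference -5.12, SD, n = 3), lower in 3 of 3 replicates (exact sign-flip permutation p = 0.25). Thresholded peaks showed 41.2% and 48.0%. A control string of G and A, GGAGA, fell from 20.1% in flanks to 13.8% at summits, so elements with G or C are to be read beside the lower G+C content, whose part was not tested. The GC-rich element GGCGCC was in 1.43% of summit windows and 1.90% of flanks. The longer Mad site GCCGNCGC was in 1.14% and 2.12%.

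Elements rich in A and T were more frequent at the summits. They too are to be read beside the lower G+C content, whose part was not tested. The TATA box TATAAA was in 603 windows (29.8%) against 15.4% of flanks and 16.9% of all windows, a difference of 14.2 ± 1.36 points at replicate summits (n = 3). Thresholded summits held it in 32.0% against 14.6% of flanks, and unreproduced ones in 30.8% against 16.3%. The homeodomain core TAATTA was in 14.8% and 9.35%, and a run of 8 A, AAAAAAAA, in 13.4% and 9.95%. Both were also more frequent at summits than in flanks of thresholded peaks and of unreproduced regions. The DRE TATCGATA, bound by the promoter factor Dref, was rare but stood at 1.43% of summits (29 windows) against 0.271% of flanks and 0.418% of all windows, which is 5.27 times the flank share, the largest ratio of the 23 elements. Thresholded summits held it in 1.14%. M1BP's motif GGTCACAC, which is not rich in A and T, was in 0.740% of summits (15 windows) and 0.346% of flanks. At the summits of replicate 1 it was in 0.444%. The GAGA factor core GAGAG was in 16.9% and 19.2%, and the repeat CACACACA in 2.91% and 5.16%. Of the 23 elements, 9 were more frequent at summits in 3 of 3 replicates, 11 less frequent in 3 of 3, 2 were mixed, and the nuclear receptor half-site AGGTCA was lower in 2 and equal in replicate 2. Each element that kept its direction in 3 of 3 has an exact sign-flip permutation p of 0.25, unadjusted. A match is only the presence of these letters in a window.

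A gene was counted as reached where a summit lay within 1 kb of one of its protein-coding start sites. Reproducible regions reached 544 genes, 164 of which a thresholded summit reached too, and 380 by themselves. That is 2.72% of the 13945 protein-coding genes, and 3.36% of the 11306 that no thresholded summit reached. Thresholded summits reached 2639 genes (18.9%). With the summits of replicates 1, 2 and 3 the number reached by reproducible regions alone was 379, 377 and 379, and 366 genes were reached with the pooled and all 3 replicate summits. The 380 genes had a median length of 4.17 kb and 1.76 start sites on average, against 2.17 kb and 1.41 for all protein-coding genes, so genes with more sequence and more start sites are among them, and the part of this in the counts was not tested. The gene lists described next were chosen with earlier results of these data known. They are set beside the 2.72% of all genes, with no test of a list. A gene with a thresholded summit cannot count as reached by reproducible regions alone, which holds this share down in lists with many such genes.

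In the TGF-beta and BMP pathway, reproducible regions alone reached 6 of 33 genes (18.2%) and thresholded summits 14 (42.4%). The list's median gene length was 11.2 kb. Among the receptors, tkv, a type I BMP receptor, had a region 97 bp upstream of a start site that ranked 6734 in the pooled list and 6926, 9703 and 7970 in replicates 1, 2 and 3. Its replicate summits lay 0, 6 and 4 bp from the pooled one. The type II receptor gene put, whose product serves both branches, had a region 3 bp from a start site, with ranks of 6887 in the pooled list and 7599, 8911 and 10403 in the replicates. Start sites of the type I receptor babo and the type II receptor wit were reached by thresholded summits, of ranks 2367 and 2552, and sax by neither. Reproducible regions therefore lay at a type I and a type II receptor gene whose start sites had no thresholded summit within 1 kb. Thresholded summits did lie within both genes, 10 in tkv and 1 in put. The nearest thresholded summit was 3061 bp from the tkv region and 1483 bp from the put region.

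Among the pathway's other members, nmo, which encodes a Nemo-like kinase that phosphorylates Mad, had a region 141 bp upstream at ranks 8774, 8332 and 7247. The cv region is the one described above, and with it the extracellular regulators tok, a tolloid-related protease gene, and plum, which encodes an immunoglobulin superfamily protein, completed the 6. The pooled summit of the tok region lay 5 bp from a start site, with ranks of 9833, 11356 and 9352. Its replicate summits lay 28, 319 and 0 bp from the pooled one. The plum region lay 911 bp upstream with ranks of 11347, 7576 and 13451. Both tok and plum were named after their values had been seen. No ligand gene was reached by a reproducible region: daw and myo had thresholded summits of ranks 5914 and 3099, and Actbeta, mav, dpp, gbb and scw had neither. Among the SMAD genes, Mad had a thresholded summit of rank 2122 and Smox and Med had neither. The inhibitory SMAD gene Dad had a thresholded summit of rank 2503 at its start and 2 reproducible regions within the gene. Within gene bodies reproducible summits were also found in Snoo, the gene of a SMAD-binding co-repressor, with 5 beside 13 thresholded ones, in the glypican genes dally (2) and dlp (1), in Mad, shn and dpp (1 each), and in tkv, put, plum, tok and nmo (2 each). Thresholded summits within plum, nmo and tok numbered 8, 6 and 0, and the plum region lay 728 bp from a thresholded summit.

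The ecdysone response list had the largest share of thresholded genes, 21 of 32, and 3 more (9.38%) were reached by reproducible regions alone. They encode transcription factors of the hormone cascade. Kr-h1 had a region 594 bp upstream with ranks of 8765, 6021 and 6516. The nuclear receptor gene ftz-f1, a competence factor of the late prepupa, had one 217 bp upstream at ranks 8018, 5491 and 14456. Eip78C, an early-late nuclear receptor gene, had one 34 bp downstream at ranks 7700, 6473 and 13905. For ftz-f1 and Eip78C replicate 3 ranked the region far lower than the other replicates did. EcR and usp, which encode the ecdysone receptor's subunits, had thresholded summits of ranks 2927 and 1701, and Cth and Cyp18a1 had neither. Of the 17 ecdysteroid synthesis genes only the sterol transport gene Npc2a was added, with ranks of 7207, 11851 and 6205. Its region lay 453 bp upstream of Npc2a, nearer to Got2, and 991 bp from a thresholded summit. A second region with the same replicate ranks, of pooled rank 10494, had Npc2a as its nearest gene.

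Among developmental regulators, Hox genes had no thresholded summit at a start site, and 2 of 8 had a reproducible region. Antp, which specifies the mesothorax, had one 554 bp upstream at ranks 8502, 6973 and 8614, and 4 reproducible summits within the gene beside 10 thresholded ones. The mouthpart selector pb had one 114 bp downstream at ranks 7991, 8304 and 12974. Of the disc selector genes 4 of 33 (12.1%) were reached by reproducible regions alone and 6 by thresholded summits. The 4 are bi, a T-box gene and BMP target in the wing, with ranks of 7249, 8323 and 7393, caup of the Iroquois complex with 13154, 8932 and 6158, the dorsal wing selector ap with 11654, 7777 and 12855, and the Hedgehog effector ci with 11745, 11399 and 10823. The region at ap lay 230636 bp from the nearest thresholded summit. At ci the summit of replicate 2 lay 426 bp from the pooled one.

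Signalling lists outside TGF-beta gained between 0 and 3 genes. In insulin and TOR signalling, 3 of 29 (10.3%) were added. Pi3K92E, the catalytic subunit gene of PI3-kinase, ranked 8058, 10346 and 3640. Thor, the gene of the translation repressor 4E-BP, ranked 6784, 9202 and 14579, with the summit 5 bp from the start site. Pdk1, a kinase gene downstream of PI3-kinase, ranked 8816, 10078 and 9669. In the Wingless pathway 2 of 27 were added, the receptor gene fz2 at 13200, 7192 and 5798 and the destruction complex gene Apc at 9769, 7550 and 4971. The JAK/STAT and JNK list gained the cytokine gene upd3 at 8409, 13206 and 11697 and Jra, the Jun gene, at 12096, 4941 and 14203. Notch signalling gained the protease gene kuz, at 7874, 6145 and 6164, and the Hippo pathway the zyxin gene Zyx. The kuz region lay 567 bp upstream of kuz, and its nearest gene was B4. Of the 26 EGFR and Ras genes 15 had a thresholded summit and none was added.

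Lists that mark tissues or housekeeping complexes gained between 0 and 3 genes each, with 2.72% of all genes as the background. For the fat body 3 of 18 (16.7%) were added. Fbp1, the larval serum protein receptor gene, ranked 8981, 9599 and 14927. The lipophorin gene apolpp ranked 12249, 10448 and 6223 through a region that also reached Zyx, since the start sites lie 28 and 23 bp from its summit. The lipid droplet gene Lsd-2 ranked 7192, 11665 and 14209. For muscle the gene was Strn-Mlck, for neurons fne, for glia wrapper, for neuron remodelling dan beside ftz-f1, and for testis Mst87F, the last at ranks 14944, 8049 and 14853. At Mst87F the summits of replicates 1 and 2 each lay 406 bp from the pooled one. No gene of the hemocyte (15 genes), gut (13), salivary glue and puff (21), clock (14), cell death and autophagy (32) or Polycomb and trithorax (27) lists was reached by reproducible regions alone, and in lists of this size the background share comes to less than 1 gene. Cytosolic ribosomal protein genes, of which thresholded summits reached 51 of 85, gained RpS5b, RpS3 and RpS15 (3.53%). Of the 34 without a thresholded summit these 3 are 8.82%, against 3.36% over all genes without one. The mitochondrial ribosomal protein genes gained mRpS30 and mRpL22 (2 of 73, 2.74%), the proteasome Prosalpha3 (1 of 48, 2.08%) and cuticle proteins Cpr12A and Cpr51A (2 of 96, 2.08%). These last 3 shares are near the 2.72% of all genes.

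Chemosensory receptor genes, which act mainly in sensory neurons, had 2 of 179 with a thresholded summit (1.12%) and 4 (2.23%) with a reproducible region alone, against 18.9% and 2.72% of all genes. Ir85a ranked 6870, 12996 and 6390, Ir94f 9580, 7345 and 12766, Gr77a 14647, 7845 and 10176, and Or22a 12497, 13924 and 9714.

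Across the 28 lists 45 genes were reached by reproducible regions alone, through 44 regions, and 21 of the 45 had all 3 replicate summits within 100 bp of the pooled summit. In 15 at least 1 replicate ranked the region within its first 6622, and cv was the single one for which all did. The plot of ranks shows every value.

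**Figure D4:**
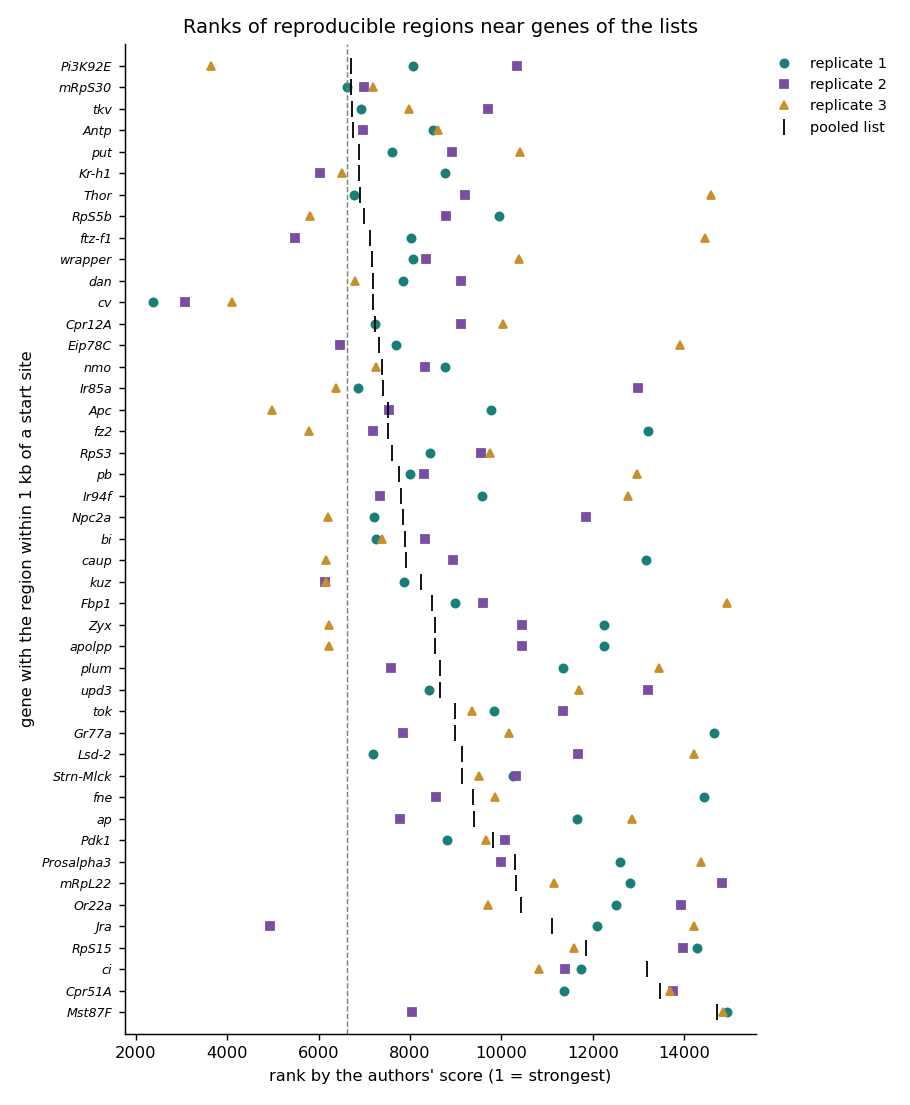
Rank by the authors' score (horizontal axis, 1 the strongest) of the reproducible region near each of 45 list genes (vertical axis), in the pooled list (bar) and in the 3 replicates (symbols); the dashed line marks the 6622 thresholded lines. Ranks of a gene commonly lie far apart, and only cv lies left of the line in every replicate.

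**Figure D5:**
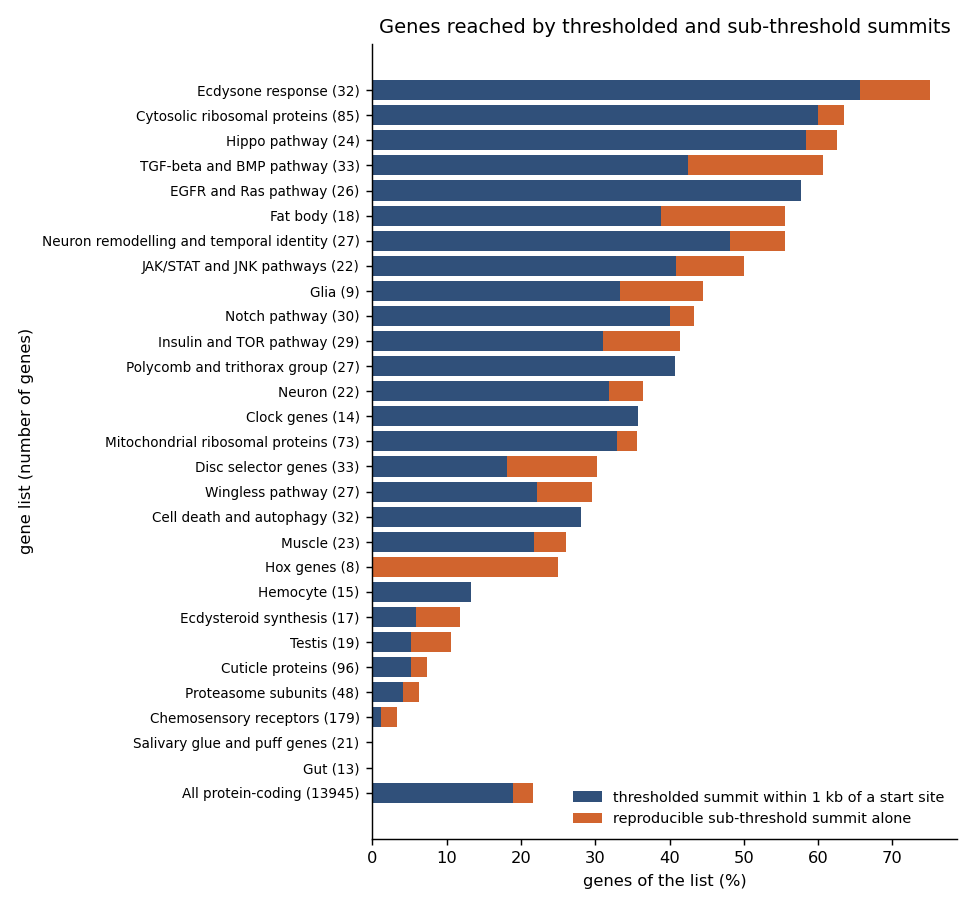
Share of each list's genes (horizontal axis, percent) with a thresholded summit within 1 kb of a start site and with a reproducible sub-threshold summit alone, by list (vertical axis, number of genes in brackets). For all 13945 protein-coding genes the shares are 18.9% and 2.72%; for the TGF-beta and BMP pathway they are 42.4% and 18.2%.

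Within gene bodies, summits were counted per gene. A protein-coding gene enclosed 1196 of the 2026 summits, 739 genes held at least 1 and 33 held 5 or more, and 269 of the 739 held no thresholded summit. kirre, an adhesion protein gene of myoblast fusion that spans 394 kb of the X, and the teneurin gene Ten-a, which spans 292 kb, held 13 each beside 30 and 11 thresholded summits. CG43658 held 11 in 105 kb, and hth, the homeodomain gene homothorax, 10 in 132 kb. SKIP and fz2 held 9 each, Tet, whose product belongs to the TET dioxygenases, held 8, CG32816 and the zinc finger gene mamo 7 each, and CG3655 6 beside 2 thresholded summits. It was 1 of 8 genes with 6 regions and was taken as the first in alphabetical order. Per 10 kb the 10 genes held between 0.330 (kirre) and 1.05 (CG43658) regions, against 0.151 over the arms. These genes were ranked by the count itself, so no test is given.

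By chromosome arm the density was 18.7 regions per Mb on X, 15.6 on 2L and 3L, 14.1 on 3R, 12.6 on 2R and 7.42 on 4. Thresholded peaks had the same arm at the top, 58.1 per Mb on X, and at the bottom, 14.1 on 4. Of the sub-threshold regions of an arm, between 18.2% (10 regions on 4) and 28.8% (X) were reproducible.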

How the data were processed

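Peak lists from anti-GFP ChIP-seq were analysed for 3 biological replicates of white prepupae. Per the labels, chromatin was sonicated and fragments of 200 to 800 bp were taken. The authors deposited a list of 30000 regions per replicate and for the pooled replicates, each called with 1 control, and a thresholded list derived by the irreproducible discovery rate. Not given in the sources used here are aligner, peak caller, rate cutoff and what the control was. Every line holds a summit offset, the authors' signal score, whose scale no source states, and a q-value that the authors deposited as −log10. Scores served only to rank lines within a list.

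Each region was matched to its strongest overlapping region in every replicate, whose summit gave the replicate value. Summits were placed, in order, in promoters, then 5′ untranslated, coding, 3′ untranslated and remaining exonic sequence, introns and intergenic sequence of the Ensembl release 115 annotation. The dm6 build has the Release 6 sequence, in which 99.8% of 30593 annotated start codons read ATG. Python 3.11.15, numpy 2.4.6, pandas 2.3.3 and scipy 1.17.1 were used, and the functions were tested on simulated data. No column of another series was present. Replicates 1 and 2 shared 292 identical intervals with no identical score, so the lists are not 1 library deposited again.

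The members, the 28 gene lists, the 23 elements and the rule for named genes were chosen with earlier results of these data known. That rule takes the 20 regions with the best worst replicate rank, the 10 genes with most regions, up to 4 added and 2 unreached genes per list, and 17 fixed genes of the TGF-beta and ecdysone pathways and ACC. All list entries were matched, 10 of them through another symbol.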

Additional observations from a re-analysis of the deposited data

How the results depend on the processing

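The rule was varied in rank limit, ranking column, overlap, replicates required and windows. The sign of the mean was kept in 220 of 224 alternative differences. That count includes means smaller than their spread. For coding exons against unreproduced regions at ranks past 8000 and up to 10000, the value was -0.0395 ± 0.796 points (SD, n = 3). Ranking by q-value again gave 2026 regions. The 4 differences that changed sign concern 2 results. The promoter share of reproducible minus unreproduced regions, -4.72 percentage points, turned to 1.01 with a rank limit of 20000 and to 1.91 with the unreproduced regions of the pooled list. With only ranks past 10000, pooled ranks for reproducible regions and replicate ranks for unreproduced ones, it turned to 4.69. The coding exon share of reproducible regions minus thresholded peaks, 0.230 points, turned to -0.113 with a rank limit of 12000. The cause was not tested. The number of reproducible regions, 2026, was 1067 and 3543 with rank limits of 12000 and 20000, 1180 when each replicate had to place a summit within 100 bp of the pooled one, and 2790 to 3375 when 1 replicate was left out, the highest without replicate 3. The genes reached by them alone, 380, numbered 233, 617, 214 and 489 to 647 in the same order. Those of the TGF-beta and BMP pathway, 6, numbered 4 to 7 over all alternatives, with 4 when a gene counted as reached within 2 kb of a start site. The comparisons restricted to ranks past 8000 and up to 10000, to members clear of thresholded peaks in each replicate, to pooled unreproduced regions and, beside the count of regions, to replicate summits within 100 bp were added after seeing the data. Between groups of samples, no paired analysis was possible because the series holds 1 group; differences between sets of regions were taken within each replicate. Depth is unknown, so no precision of a rank can be given.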

Other observations

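Some loci were strong in every replicate and overlapped no region of either list made from the pooled replicates. Of 4836 loci found among the first 6622 regions of all 3 replicates, 89 (1.84%) overlapped no region of the pooled list on dm6, and 96 of 4840 (1.98%) did so on the dm3 lists, at the corresponding limit of 6607. Among the 793 loci in the first 1000 of each replicate there were 3, the regions at cnc, Bicra and 1 other. The region 358 bp into cnc, which encodes the transcription factor Cap-n-collar of the oxidative stress response, ranked 692, 984 and 795, and the nearest pooled summit lay 14427 bp away. The Bicra region ranked 777, 985 and 637. At Acsl, an acyl-CoA synthetase gene, the ranks were 600, 1344 and 1071, and at the autophagy gene Atg18a 1118, 1309 and 659. The summits of replicates 2 and 3 both lay within 100 bp of that of replicate 1 at 79 of the 89 loci (88.8%), the larger of both distances having a median of 41 bp and reaching 268 bp. At promoters lay 58 of the 89 (65.2%, 95% Wilson interval 54.8 to 74.3%), and 77 of the 89 were over 1 kb from any pooled summit. Others had one close by without overlap, at 54 bp near Dif and 76 bp near jing. Not all 89 are separate: those at CG6550 and Mtap share their regions of replicates 2 and 3, and those at CG7115 likewise share theirs. The 89 loci reached 92 genes within 1 kb of a start site, 75 of which had neither a thresholded nor a reproducible summit. These loci count among the unreproduced regions of each replicate list above, and their part in the promoter share of that group was not tested. Genes were named here after their values had been seen.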
